A study of Mus musculus with 7 samples.

Results

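Membrane transporters, channels and ion pumps were examined in sorted mouse mammary gland cells as 31 of the 1632 probe sets that the authors listed as differing between the side population (SP) and the non-side population (NSP). The 31 were the listed probe sets whose gene name or description holds 1 of 8 words or phrases (solute carrier, potassium, sodium channel, calcium channel, chloride, ATPase, aquaporin or gap junction). ATP-binding cassette genes and names with mitochondri or proteasome were left out. The words were found in 6 further probe sets that this removed, 3 of proteasome subunits and 3 of Clic4, an intracellular chloride channel protein with an old mitochondrial name. No chloride channel was therefore left. The 31 probe sets stand for 28 named genes and 1 expressed sequence with no gene name, out of 45101 probe sets on the array.

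Mammary gland cells of Mus musculus were stained with a Hoechst dye and sorted. SP cells are the dim cells that pump the dye out, and NSP cells keep it. RNA of both went through repeated amplification before hybridisation to Affymetrix mouse genome arrays. There were 3 SP arrays, 3 NSP arrays and 1 array of universal mouse reference RNA. The authors set aside further chips as outliers in their dChip model. The strain, the age and the reproductive state of the mice were not given in the sources used here, and nothing says whether samples with different numbers came from separate mice. A p-value here reflects only the sample-to-sample spread, part of which could be technical. The SP gate is defined by dye efflux alone and can hold several cell types. In such bulk samples fewer cells of a type and less RNA per cell cannot be told apart.

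Solute carriers move ions, sugars, amino acids, metabolites and hormones across membranes by exchange or cotransport. Ion pumps spend ATP to build the sodium, potassium and proton gradients on which that transport depends, and channels let ions or water pass down their gradients. In the mammary epithelium these proteins shape the secretion of milk, and aquaporin 1 is a water channel well known in the endothelium of blood vessels.

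Every one of the 31 probe sets had been selected by the authors on this same comparison, by a paired p of at most 0.05, a difference of at least 0.185 on their log scale and present calls in at least 20% of the arrays of each group. The differences below are therefore a description of listed genes, and neither their directions nor their p-values are independent evidence. In the authors' deposited table the smallest difference among the 31 had a size of 0.20, for Atp6v1c1. The authors' deposited table gives the whole list a median false discovery rate of 9.4% over 50 permutations, with a 90th percentile that takes in every listed probe set. Probe sets below the authors' limit carry no name in the files used here.

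Signals were lower on average in SP cells for 20 of the 31 probe sets and higher for 11. Counted as genes, with the listed probe set of highest mean signal for each, 18 of 29 were lower and 11 higher. Among all 1632 listed probe sets 54.7% were lower and 45.3% higher in SP, and among the 38115 probe sets tested 50.8% were lower and 49.2% higher. The median difference, SP minus NSP on the log2 scale, was -0.25 for the 31 probe sets, -0.12 for the authors' list and -0.01 for all probe sets tested. The median size of a difference was 0.46, 0.41 and 0.27. The 3 SP arrays lay wholly above the 3 NSP arrays for 6 of the 31 probe sets, against a background of 6.74% of all probe sets tested. They lay wholly below for 13, against a background of 7.57%. On the authors' list these shares were 22.4% and 27.3%. The direction was the same in all 3 same-numbered pairs for 23 of the 31 (74.2%), against 80.3% of the authors' list and 33.2% of all probe sets tested.

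**Figure D1:**
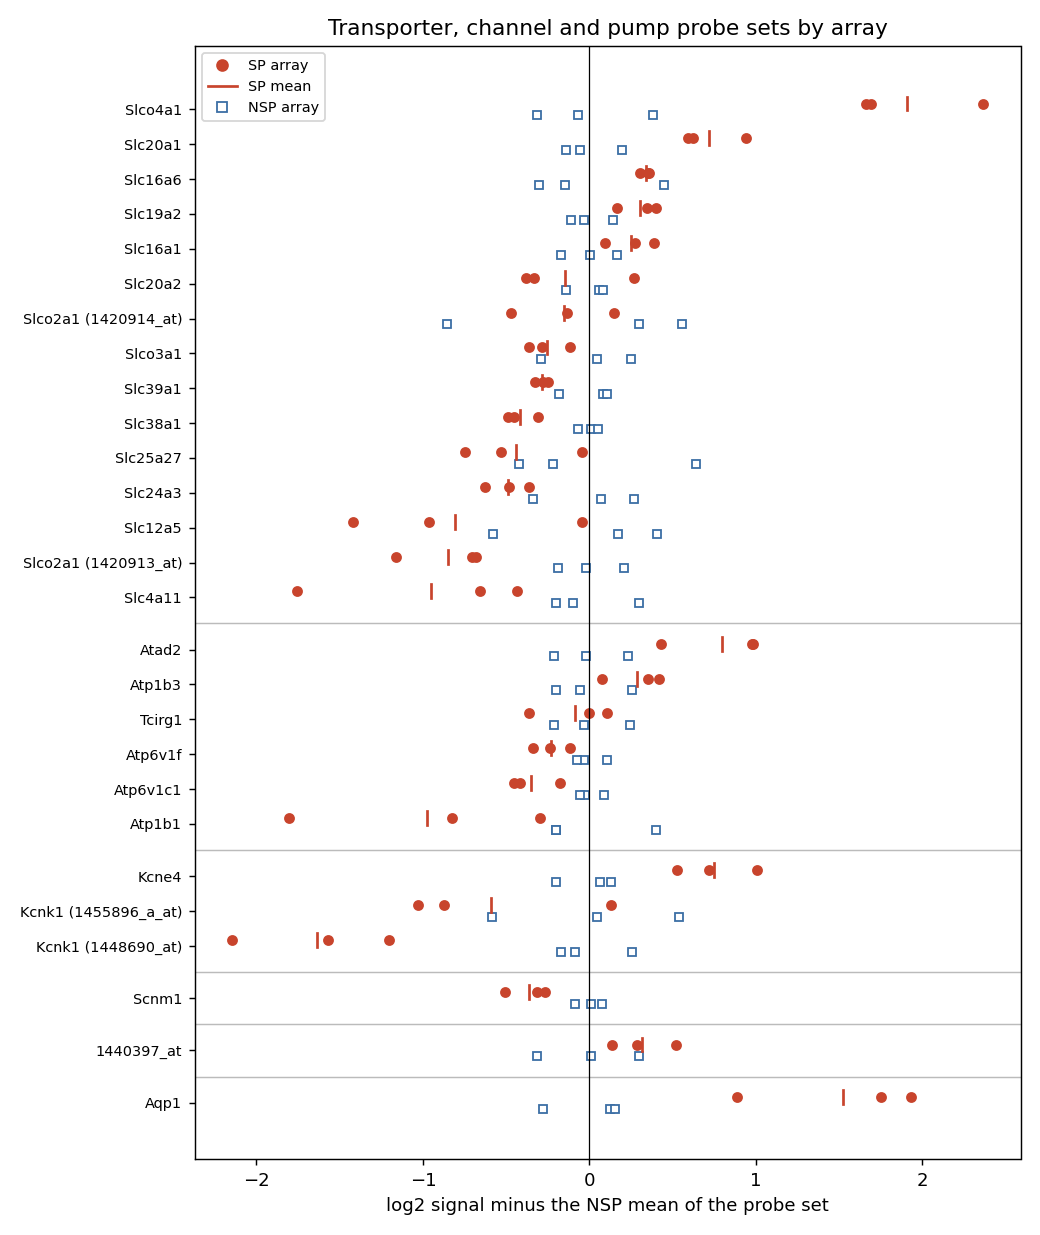
Each row is 1 of 27 probe sets of the set, grouped from top to bottom as solute carriers, ATPases, potassium channels, a gene with sodium channel in its name, the calcium channel-like sequence and aquaporin; the x axis gives log2 signal minus the NSP mean of that probe set. Filled circles are SP arrays with their mean as a bar, open squares are NSP arrays; Slco4a1 and Aqp1 stand farthest to the right, and a Kcnk1 probe set (mean -1.64) farthest to the left.

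No member passed limma's test over all 38115 probe sets (adjusted p under 0.05, Benjamini-Hochberg), which called 6 probe sets or 0.0157%, 1 of them higher in SP (0.00262%) and 5 lower (0.0131%). Of the authors' list it called 1 probe set or 0.0613%. At an unadjusted p under 0.05 limma counted 12 of the 31, against 8.72% of all probe sets. With the sample number as a block it called 0 of the 31 and 0 probe sets in all, although 3758 had an unadjusted p under that threshold. With an intensity trend in the variance it called 8 of the 31 (5 higher and 3 lower) against a background of 1.00% (0.352% higher and 0.648% lower), and 12.9% of the authors' list. With the block and the trend together it called 9 of the 31 (29.0%) against a background of 2.47%, and 27.9% of the authors' list. Of those, 5 were higher in SP (Slco4a1, Aqp1, Kcne4, Slc20a1 and Atad2, background 1.16%), and 4 were lower, Kcnk1, Slco2a1 and Atp1b1 among them (background 1.31%). Because a paired p on these arrays selected the list, passing the blocked test is partly built in. Adjusted p-values below are limma's over all probe sets, first without and then with the block and the trend.

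Across the series the arrays were alike in overall signal, with medians between 79.3 and 97.2. Within SP, Pearson's r of log2 signals between arrays was 0.944 to 0.948, and within NSP 0.940 to 0.950 (taken across probe sets, so no independent replicates). The 3'/5' ratio of the Actb control probe sets, which falls as amplified copies reach further towards the 5' end, was 3.85 ± 0.50 on the log2 scale on SP and 3.28 ± 0.80 on NSP arrays (SD, n = 3 each). That of Gapdh was 3.65 ± 0.66 on SP and 2.87 ± 0.64 on NSP arrays, and both ratios were higher on the SP array in each same-numbered pair. The part of these differences in the results below was not tested. All 31 members were tested, and none had a signal at or under the floor of 17 on any of the 6 arrays. Marker genes could be named only where the authors had listed them on this same comparison, so the counts and sums that follow cover genes already selected for a difference. Of 13 endothelial markers 8 were named, all higher in SP, with a summed signal of 9349 to 9732 on SP and 3055 to 3238 on NSP arrays. Of 11 luminal markers 5 were named, all lower, with sums of 9538 to 17175 on SP and 29874 to 35394 on NSP arrays, as were the 4 named of 7 basal markers (979 to 1135 on SP and 2872 to 4036 on NSP arrays). Of 8 leukocyte and macrophage markers 4 were named, all lower, with sums of 415 to 674 on SP and 3378 to 10940 on NSP arrays. The 3 named of 6 fibroblast markers were higher in SP (16005 to 18323 on SP and 8174 to 10871 on NSP arrays), as was the 1 named of 6 pericyte markers, Abcc9, and the 1 named of 4 Schwann cell markers was lower. None of 6 striated muscle markers was named. A list of 6 other muscle genes, added after values had been seen, was lower for all 6, with sums of 1153 to 1318 on SP and 4217 to 4990 on NSP arrays. No named marker was at the floor on all arrays of a group. On some array 1 of the leukocyte and macrophage markers was at the floor, as was 1 of the added muscle genes.

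Promoter sequence is shown for the 5 genes on which most of the account below turns and for which the RefSeq table holds a start, Aqp1 and Kcne4 (higher in SP) and Kcnk1, Slco2a1 and Atp1b1 (lower in SP). Of the 28 named genes, 15 had an entry. Each line gives the 250 bases before the annotated start on the GRCm38.p6 build, 5′ to 3′ on the strand of the gene, credited to RefSeq. Capitals mark matches on either strand to 4 common promoter elements, the GC box (GGGCGG), the TATA box (TATAAA), the CCAAT box (CCAAT) and the E-box (CACGTG), which do not overlap in these windows.
Aqp1 (chr6:55336049-55336298, plus strand): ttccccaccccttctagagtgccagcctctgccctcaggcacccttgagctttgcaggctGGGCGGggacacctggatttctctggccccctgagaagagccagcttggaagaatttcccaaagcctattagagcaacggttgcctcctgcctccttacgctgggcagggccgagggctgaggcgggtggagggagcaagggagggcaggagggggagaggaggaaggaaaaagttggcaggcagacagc
Kcne4 (chr1:78816661-78816910, plus strand): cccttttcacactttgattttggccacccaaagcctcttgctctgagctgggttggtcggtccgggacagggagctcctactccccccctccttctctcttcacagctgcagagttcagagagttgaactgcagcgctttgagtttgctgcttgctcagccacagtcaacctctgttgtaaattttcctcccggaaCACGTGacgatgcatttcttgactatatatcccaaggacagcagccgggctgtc
Kcnk1 (chr8:125994852-125995101, plus strand): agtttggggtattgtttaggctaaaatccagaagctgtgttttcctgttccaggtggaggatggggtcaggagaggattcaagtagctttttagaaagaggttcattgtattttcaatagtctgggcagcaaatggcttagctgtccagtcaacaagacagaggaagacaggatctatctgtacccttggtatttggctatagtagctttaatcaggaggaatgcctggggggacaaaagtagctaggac
Slco2a1 (chr9:103008237-103008486, plus strand): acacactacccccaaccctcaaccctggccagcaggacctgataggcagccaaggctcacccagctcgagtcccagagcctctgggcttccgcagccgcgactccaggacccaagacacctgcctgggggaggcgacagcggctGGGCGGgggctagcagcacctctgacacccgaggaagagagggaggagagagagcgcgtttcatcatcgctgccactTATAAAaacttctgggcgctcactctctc
Atp1b1 (chr1:164458356-164458605, minus strand): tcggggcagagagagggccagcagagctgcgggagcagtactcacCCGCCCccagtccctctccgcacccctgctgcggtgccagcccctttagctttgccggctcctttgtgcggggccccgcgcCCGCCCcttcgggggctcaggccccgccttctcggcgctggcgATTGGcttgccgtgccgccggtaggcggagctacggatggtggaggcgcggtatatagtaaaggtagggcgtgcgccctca
A GC box stood in the Aqp1, Slco2a1 and Atp1b1 windows, with 2 in that of Atp1b1, and in 32.7% of the 32851 windows of the same length in the table. A TATA box stood in the Slco2a1 window and in 12.4% of all windows, a CCAAT box in that of Atp1b1 and in 33.8%, and an E-box in that of Kcne4 and in 6.0%. The Kcnk1 window held none of the 4 letter strings. Its GC content was 44.4%, against 70.4% for Atp1b1 and a median of 52.4% over all windows. These matches describe the sequence and are not shown to be bound.

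Of the 14 genes with solute carrier in their names, 5 were higher and 9 lower in SP, with a median difference of -0.27. The SP arrays lay wholly above the NSP arrays for 3 and wholly below for 5, and the groups overlapped for 6. The backgrounds are 6.74% above and 7.57% below over all probe sets tested, and 22.4% and 27.3% on the authors' list. The organic anion carriers gave the widest range of differences. Slco4a1, a carrier of thyroid hormones and other organic anions, had signals of 870.2, 1385 and 852 on the SP arrays and 350.3, 256 and 217 on the NSP arrays. Each SP array lay above each NSP array, and SP array 2 was the highest. The difference was 1.91 ± 0.30 on the log2 scale (moderated SE, 3 arrays per group), or 3.75-fold, with adjusted p = 0.116 and 0.000842. It was the highest difference among the 31 probe sets.

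Slco2a1, the prostaglandin transporter, had signals of 2850.2, 3903 and 3974 on the SP arrays and 5590.0, 7353 and 6268 on the NSP arrays. All SP arrays lay below all NSP arrays, with pair differences between -0.97 and -0.66. The difference was -0.85 ± 0.22 (1.80-fold higher in NSP, adjusted p = 0.320 and 0.000599). It is on the authors' strictest list, of 90 probe sets. A second Slco2a1 probe set had 314, 204 and 258 on the SP arrays and 417, 156 and 348 on the NSP arrays. There the groups overlapped, and the difference was -0.15 ± 0.41 (adjusted p = 0.958 and 0.857). In the authors' deposited table the 2 probe sets had like differences, -0.83 and -0.86. Slco3a1, another prostaglandin and thyroid hormone carrier, had 295, 333 and 280.4 on SP arrays and 294, 371 and 428 on NSP arrays. Its difference was -0.25 ± 0.21 (adjusted p = 0.832 and 0.673). It was -0.40 without NSP array 1 and -0.13 without NSP array 3.

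Of the inorganic ion carriers, 1 of 5 was higher in SP. Slc20a1, a sodium-dependent phosphate carrier, had 10098, 12575 and 9901 on the SP arrays and 5938, 6300.2 and 7520.3 on the NSP arrays. The groups did not overlap, and the difference was 0.72 ± 0.20 (1.65-fold, adjusted p = 0.351 and 0.00398). In the authors' deposited table it was 0.29. Its paralog Slc20a2 had 1478, 2318 and 1531 on SP arrays and 1751, 2003 and 2037 on NSP arrays. SP array 2 was above all NSP arrays and the other two below. The difference of -0.15 ± 0.24 (adjusted p = 0.927 and 0.68) rested on single arrays. It was -0.032 without SP array 1, -0.36 without SP array 2 and -0.057 without SP array 3.

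Slc4a11, a membrane protein of the bicarbonate carrier family found in corneal endothelium, had 288, 134 and 335 on SP arrays and 424, 556 and 394 on NSP arrays. SP array 2 was the lowest, and the difference of -0.95 ± 0.39 (adjusted p = 0.571 and 0.177) became -0.55 without it. In the authors' deposited table Slc4a11 was called present on 66% of the SP arrays and on all NSP arrays. Slc24a3, which exchanges sodium for calcium and potassium, had 179.7, 195 and 162 on SP arrays and 199, 302 and 263 on NSP arrays. The groups did not overlap, with a difference of -0.49 ± 0.22 (adjusted p = 0.623 and 0.472). Slc12a5, the potassium-chloride cotransporter of neurons, had 66.9, 48.7 and 127 on SP arrays and 147, 173 and 87.1 on NSP arrays. The groups overlapped, and pair 3 ran opposite to the other pairs, with a difference of 0.54. Over all arrays it was -0.81 ± 0.44 (adjusted p = 0.703 and 0.555), and -0.50 without SP array 2.

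Among the carriers of metabolites, vitamins and metals the sizes of the differences lay between 0.25 and 0.44. Slc38a1, a sodium-coupled carrier of glutamine, had 293, 332 and 300.5 on SP arrays and 414, 393 and 426 on NSP arrays, and Slc39a1, a zinc importer, had 1082, 1021 and 1057 on SP arrays and 1356, 1380.3 and 1129 on NSP arrays. In both the SP arrays lay below the NSP arrays, with differences of -0.42 ± 0.17 and -0.28 ± 0.18. Slc19a2, the thiamine carrier, had 2032, 1792 and 2111 on SP arrays and 1766, 1564 and 1478 on NSP arrays. These did not overlap, with a difference of 0.30 ± 0.18. The monocarboxylate carriers Slc16a1, which moves lactate, and Slc16a6 differed by 0.25 ± 0.19 and 0.34 ± 0.25, with overlapping groups. Slc16a1 came to 0.17 without NSP array 1, and Slc16a6 to 0.19 without NSP array 2 and 0.56 without NSP array 3. In the authors' deposited table Slc16a6 was called present on all SP arrays and on 33% of the NSP arrays. The probe set listed as Slc25a27, an uncoupling protein of the inner mitochondrial membrane, differed by -0.44 ± 0.35 with overlapping groups, by -0.29 without SP array 2 and by -0.12 without NSP array 2. Its description carries another gene number than its name column, so its identity is uncertain. Adjusted p lay between 0.569 and 0.816 for these 6 genes and at 0.195 or above with the block and the trend.

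Aqp1, the aquaporin, was higher in SP. Its signals were 367, 758 and 669 on the SP arrays and 164, 216 and 221 on the NSP arrays. No array of one group reached the other, SP array 1 was the lowest of its group, and the pair differences lay between 1.16 and 1.81. The difference was 1.52 ± 0.33 (2.88-fold, adjusted p = 0.219 and 0.00296). Aqp1 is used in many tissues as a marker of vascular endothelium, and the sum of the named endothelial markers, given above, was higher on all SP than on all NSP arrays. The sum of the named fibroblast markers and the signal of the pericyte marker Abcc9 were also higher on all SP than on all NSP arrays. How far the share of any of these cell types sets this difference was not tested.

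The potassium channel genes ran in opposite directions. Kcnk1, the two-pore channel TWIK-1, had 473, 705 and 909 on the SP arrays and 1973, 2497 and 1856 on the NSP arrays. The groups were well apart, with a difference of -1.64 ± 0.29 (3.11-fold higher in NSP, adjusted p = 0.156 and 0.000748). A second Kcnk1 probe set had 60.1, 67.0 and 134 on SP arrays and 81.8, 178 and 126 on NSP arrays. These overlapped, and its difference was -0.59 ± 0.42 (adjusted p = 0.794 and 0.642), whereas in the authors' deposited table the 2 probe sets had -1.48 and -1.47. In that table the second was called present on 66% of the SP arrays and on all NSP arrays. Several marker lists were lower in SP as well, with medians of -1.61 (basal), -1.55 (luminal), -1.89 (the added muscle genes) and -3.26 (leukocyte and macrophage), and their part in the Kcnk1 difference was not tested.

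Kcne4, a small regulatory subunit that inhibits voltage-gated potassium channels, had 2124, 1861 and 2603 on the SP arrays and 1353, 1127 and 1418 on the NSP arrays. All SP arrays were above all NSP arrays, by 0.65, 0.72 and 0.88 within pairs. The difference was 0.75 ± 0.21 (1.68-fold, adjusted p = 0.358 and 0.00258), and in the authors' deposited table it was 1.06.

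**Figure D2:**
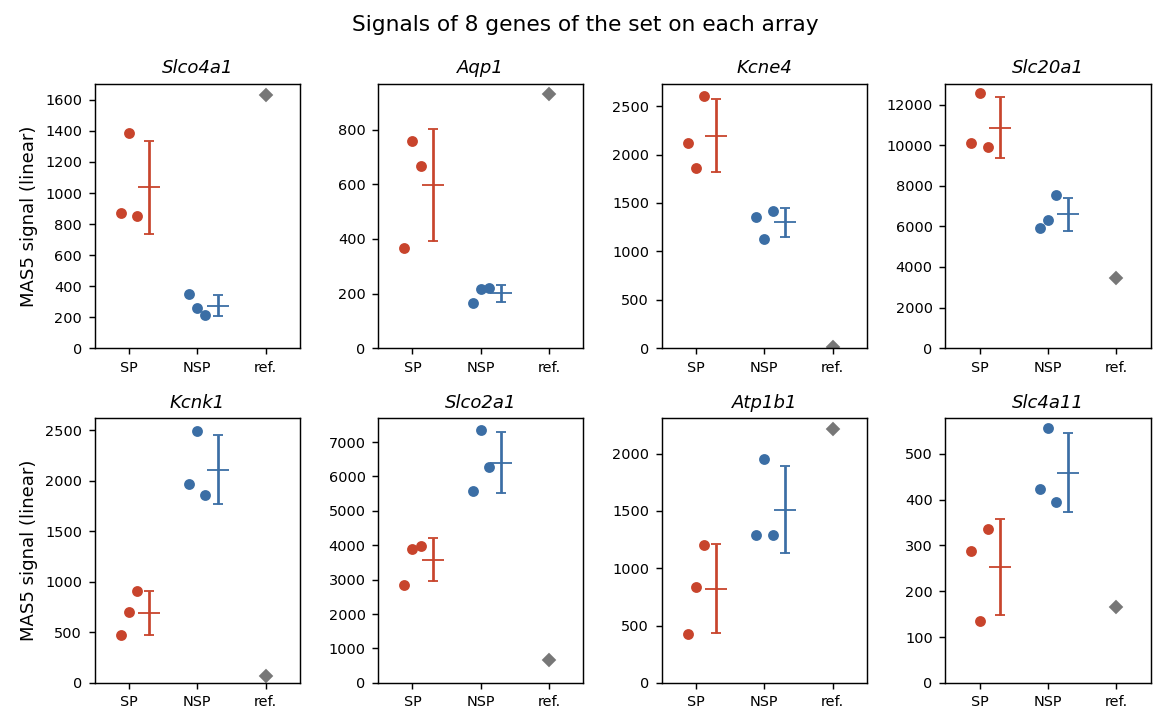
Linear MAS5 signal (y axis, starting at 0) of 8 genes on each of the 3 SP arrays, 3 NSP arrays and the 1 reference RNA array (diamond); bars give the mean ± SD of a group. The SP points lie above the NSP points in the upper row (Slco4a1, Aqp1, Kcne4, Slc20a1) and below them in the lower row (Kcnk1, Slco2a1, Atp1b1, Slc4a11).

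Scnm1, which has sodium channel in its name, encodes a splicing factor and no channel. It had 598, 524 and 619 on SP arrays and 783, 701 and 748 on NSP arrays, with no overlap. The difference was -0.36 ± 0.18 (adjusted p = 0.653 and 0.25). The sequence without a gene name, described as similar to the alpha-2/delta subunit of a rat L-type calcium channel, had 1281, 1087 and 979 on SP arrays and 1098, 898 and 718 on NSP arrays. It was higher in SP within each pair, though the groups overlapped. The difference was 0.32 ± 0.23 (adjusted p = 0.8 and 0.243), or 0.16 without NSP array 3.

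The ion pumps of the list were subunits of the sodium-potassium pump and of the V-type proton pump. Atp1b1, a beta subunit of the sodium-potassium pump typical of epithelia, had 425, 835 and 1204 on the SP arrays and 1292, 1952 and 1289 on the NSP arrays. SP arrays spread widely, and SP array 3 came within 0.10 (log2) of its NSP partner. The difference was -0.98 ± 0.42 (1.97-fold higher in NSP, adjusted p = 0.601 and 0.0487), and -0.56 without SP array 1. In limma with the block alone its adjusted p was 0.53, and with the trend alone 0.225. Atp1b3, another beta subunit, had 3148, 3813 and 3992 on SP arrays and 2601, 2866 and 3560.2 on NSP arrays. It was higher in SP within each pair by 0.17 to 0.41, with overlapping groups. Its difference was 0.28 ± 0.21 (adjusted p = 0.801 and 0.133), or 0.19 without NSP array 1.

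Both listed subunits of the cytosolic sector of the proton pump were lower in SP without overlap. The background for this is 7.57% of all probe sets tested and 27.3% of the authors' list. Limma's adjusted p was 0.674 and 0.0984 for Atp6v1c1 and 0.807 and 0.315 for Atp6v1f. Atp6v1c1 had 1400.3, 1436 and 1693 on SP arrays and 1880, 1839 and 2034 on NSP arrays, a difference of -0.35 ± 0.18. Atp6v1f had 1510.3, 1405 and 1641 on SP arrays and 1739, 1684 and 1914 on NSP arrays, a difference of -0.23 ± 0.18. Tcirg1, the membrane sector subunit known from osteoclasts, had 665, 717 and 518 on SP arrays and 650.4, 789 and 574 on NSP arrays. Its difference of -0.08 ± 0.23 (adjusted p = 0.957 and 0.857) is the smallest of the 31. It changed sign when SP array 3 or NSP array 2 was left out.

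Atad2, a chromatin protein with an AAA ATPase domain that transports nothing across membranes, entered through the word ATPase. It had 1821, 2657 and 2672 on SP arrays and 1166, 1329 and 1584 on NSP arrays, without overlap and with a difference of 0.80 ± 0.24 (1.74-fold, adjusted p = 0.384 and 0.00236).

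The log2 ratio of 2 signals on an array, with its NSP mean set to 0, was taken for related carriers and pump subunits that differed in direction or size, pairs that were chosen after their values had been seen. Atp1b3 over Atp1b1 was 1.88, 1.18 and 0.72 on SP arrays and 0.00, -0.46 and 0.46 on NSP arrays. Slc20a1 over Slc20a2 was 1.01, 0.67 and 0.93 on SP arrays and 0.00, -0.11 and 0.12 on NSP arrays. Slco4a1 over Slco2a1 averaged 2.75 ± 0.37 on SP arrays, and Slco4a1 over Slco3a1 averaged 2.16 ± 0.28 (SD, n = 3), with NSP means at 0 and SDs of 0.49 and 0.62. In each of these ratios the SP arrays lay apart from the NSP arrays. For Slco4a1 over Slco2a1 this follows from the opposite separations of the genes themselves. Since the pairs were picked on these values, the separations are a description and no further evidence.

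**Figure D3:**
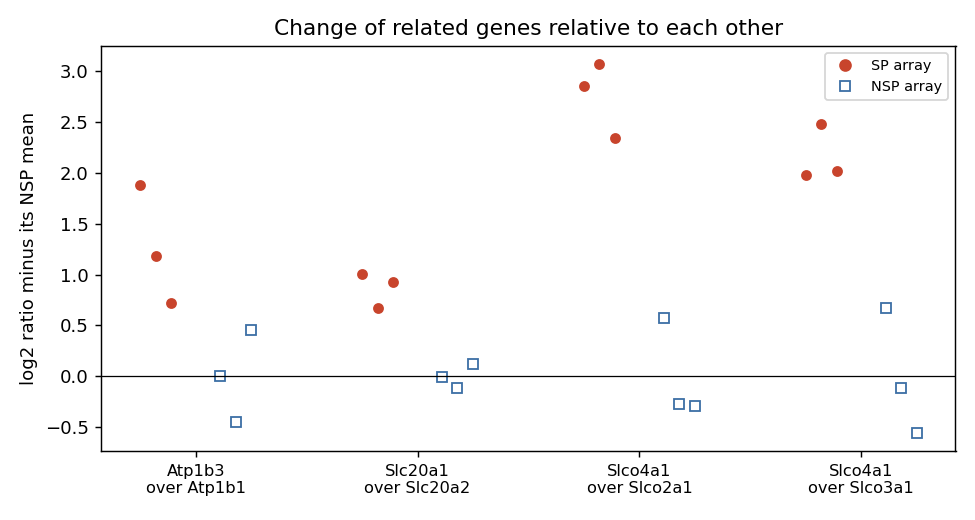
For 4 pairs of related genes (x axis) the y axis gives the log2 ratio of their signals on an array minus the NSP mean of that ratio; filled circles are the 3 SP arrays and open squares the 3 NSP arrays. The SP arrays lie above the NSP arrays for each pair.

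Against the universal reference RNA, measured on 1 array with no replicate, the members lay on both sides. The sources of that RNA are not named in the labels used here. For 14 of the 31 probe sets all SP and all NSP arrays were above the reference array, and for 13 all 6 were below it. Kcne4 had a signal of 15.1 on the reference array, under the floor, while its group means lay 6.999 (SP) and 6.25 (NSP) above that floor on the log2 scale. Kcnk1 had 67.4 on the reference array, and its means lay 3.32 (SP) and 4.96 (NSP) above it. Slco2a1 and Slc20a1 were also above the reference on all 6 arrays. Aqp1 had 931 on the reference array, and its log2 means relative to it were -0.71 (SP) and -2.23 (NSP). Slco4a1 had 1634 there, with -0.70 (SP) and -2.60 (NSP), and Atad2 had 6440, with -1.46 (SP) and -2.25 (NSP).

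The authors' dChip values of the same arrays gave all 31 probe sets the direction of the MAS5 signals. Since the list was chosen on the dChip values, this is a comparison of 2 summaries of the same scans. The widest gaps were at the second probe sets of Kcnk1 and Slco2a1, described above, followed by Slc4a11 with -0.95 in the signals and -0.50 in the authors' deposited table. Aqp1 had 1.52 and 1.54, and Slco4a1 1.91 and 1.57. Of the 31, 27 were called present on all 6 arrays in the authors' deposited table.

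**Figure D4:**
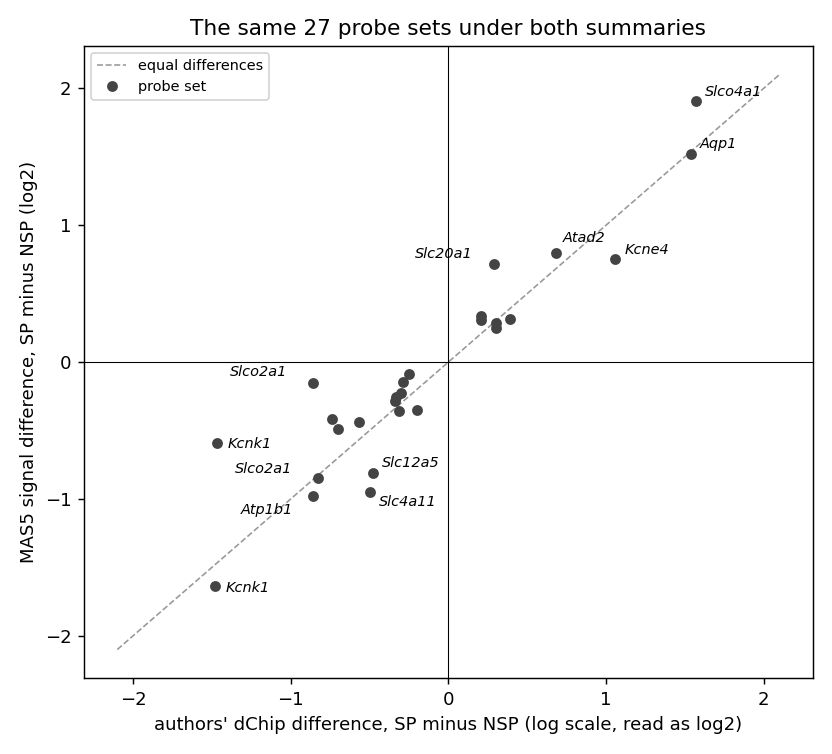
Each point is 1 of 27 probe sets of the set; the x axis gives the authors' deposited dChip difference, SP minus NSP, and the y axis the log2 difference of the MAS5 signals. All points lie in the quadrants of equal sign, and the second Kcnk1 (-1.47 and -0.59) and Slco2a1 (-0.86 and -0.15) probe sets lie farthest from the dashed line of equal differences.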

How the data were processed

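The value table deposited by the authors holds a linear signal intensity for 45101 probe sets on 7 arrays, a MAS5 summary according to the submitters' processing notes. Its version and scaling target are not known from the labels or headers. The authors' deposited list of 1632 probe sets gives dChip values on a log scale, present calls in percent and paired p-values, per the file headers. The headers give no base. The SD of the differences over that of log2 signals was 0.924 for 763 listed probe sets with a signal over 500 on all 6 arrays (0.693 for a natural log), and so the scale of the authors was taken to be log2.

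A floor of 17, the 20th percentile over the SP and NSP arrays together, was set before log2 was taken. limma 3.58.1 in R 4.3.3 (two-sided, Benjamini-Hochberg) was run on the 38115 probe sets above it on 3 or more arrays, 64 control probe sets aside. The procedure was tested on simulated data of 45037 probe sets, without the filter and with the floor at a much lower percentile. It called 174 of 200 planted changes of 3 (log2), and 14 unchanged probe sets. The planted changes were larger than that of any member and lay in probe sets of above-median mean. The power for differences of the members' size was therefore not tested. Gene names came from the gene number in the list, matched to RefSeq (GRCm38.p6). Same-numbered samples are pairs: the authors compared them as pairs per the file headers, and 2 of the 3 pairs share a day in the labels. Across probe sets the r of their deviations was 0.039, 0.041 and 0.12. For SP and NSP samples of unlike number it was lower, from -0.064 to 0.021. The fit was kept without the block, with the block as an alternative, as were normalization, floor, filter, trend, array weights and leaving out arrays. Members, lists and tests were chosen with earlier results of these data known. Named first were, per family, up to 5 genes of largest difference with 1 direction in all pairs (in each direction for carriers and ATPases), all genes of families of 6 or fewer, those on the strictest list, any called and any whose probe sets differ in direction; the rest were added to account for further members. Some members are counted but not reported singly here.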

Additional observations from a re-analysis of the deposited data

How the results depend on the processing

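The median difference of the 31 probe sets was -0.25, and -0.30 to -0.19 without 1 array. The count higher in SP was 11, and 11 to 12 without 1 array, with 11 in the authors' dChip differences. Among the 16744 probe sets of highest mean, which hold 27 of the 31, these were -0.23 and 10. The count of calls was unstable. Against 6 of all probe sets and 0 members, limma called 0 after quantile normalization, with an offset of 16 and with the replicate block, 3 after centring on the median, 24 with the floor at the 10th and 25 with it at the 40th percentile, 32 with no filter and 15 above the floor on all 6 arrays. It called 227 (3 members, Slco4a1 and Kcnk1 among them) among the 16744 probe sets of highest mean, where fewer were tested, 381 (8 members) with an intensity trend and 942 (9 members) with the replicate block and the trend. Without 1 array it called 0 to 1, and 0 members each time. The number of arrays, 3 per group, limits the precision. Of 29 genes, 9 passed under some alternative. Tcirg1 turned sign without SP array 3 (0.054) and without NSP array 2 (0.038), with leave-one-out values from -0.19 to 0.054; no other gene did by its probe set of highest mean.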
